A study of Homo sapiens with 9 samples.

Results

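Numbered zinc finger genes, the human genes whose symbol is ZNF followed by a number and an optional letter, were followed in Hep3B cells, a human liver cancer line, under hypoxia and under the HIF inhibitor 32-134D. The genes were chosen by that symbol and by a raw count of at least 50 in each of the 9 libraries, which 309 of the 560 listed ZNF symbols met. All 309 also passed the test filter of a summed count of at least 10, as did 174 ZNF symbols under the floor of 50. The table listed 60683 genes, of which 22672 were tested and 10143 met the same floor of 50. The floor used the counts themselves and was not set on a difference between groups. For 306 of the 309 genes the lowest count lay in the smallest library, a control culture at 20% O2. A gene low there could thus be left out even if it rose in hypoxia.

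RNA-seq was carried out on 9 cultures in 3 groups of 3 biological replicates, each exposed for 24 hours. Control cells received the solvent DMSO, here called vehicle, at 20% O2 or at 1% O2, and the remaining group received 32-134D at 1% O2. All groups were unmodified Hep3B cells in medium with fetal bovine serum, the labels give no dose of 32-134D (the methods of the study give 5 µM), and no library had 32-134D at 20% O2. The cells are 1 cancer line, so a difference between livers or tumors is not sampled.

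Most ZNF genes encode C2H2 zinc finger proteins, in which each finger folds around a zinc ion held by paired cysteines and histidines and reads a few bases of DNA. Many also carry a KRAB domain, which recruits the corepressor TRIM28 and, through SETDB1 and HP1 proteins, silences chromatin, above all at transposable elements. KRAB zinc finger genes arose by repeated duplication, and the largest arrays lie on chromosome 19. HIF transcription factors bind a short core, A or G followed by CGTG, next to genes they activate in hypoxia.

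Proteins translated from GENCODE v29 were available for 305 of the 309 genes, and the other 4 were pseudogenes (ZNF767P, ZNF252P, ZNF271P and ZNF542P). At least 1 finger was found in 298 of the 305, with a median of 10 fingers and at most 31, in ZNF91. The letters of the KRAB box were found in 111 proteins (36.4%) and those of a SCAN domain, which joins such proteins into pairs, in 17. The KRAB search was strict, since ZNF10, known as the KRAB protein KOX1, lacked the letters. The SCAN search relied on fixed letters too, so its 17 genes may be an incomplete set. Chromosome 19 held 136 of the 309 genes (44.0%), against 7.23% of the placed genes with the same floor.

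The 4 promoters printed here belong to the ZNF genes with the largest rise (ZNF581 and ZNF367) and the largest fall (ZNF117 and ZNF783) in hypoxia among those with a RefSeq promoter entry on the chromosomes considered and no overlap between libraries. They were chosen by the size of the change among these genes, and not by whether they hold the HIF core. Each is the 250 bases before the RefSeq start site in GRCh38.p14, 5′ to 3′ on the strand of the gene, and the capitals mark the HIF core ACGTG or GCGTG on either strand, where overlapping cores run together. They lie at chr19:55643399-55643648 (plus strand), chr9:96418371-96418620 (minus strand), chr7:64991037-64991286 (minus strand) and chr7:149261946-149262195 (plus strand).
ZNF581: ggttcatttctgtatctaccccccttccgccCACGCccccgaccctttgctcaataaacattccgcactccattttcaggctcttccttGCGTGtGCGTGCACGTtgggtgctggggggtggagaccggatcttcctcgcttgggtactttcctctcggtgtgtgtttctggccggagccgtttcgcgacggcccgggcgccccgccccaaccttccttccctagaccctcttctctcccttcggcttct
ZNF367: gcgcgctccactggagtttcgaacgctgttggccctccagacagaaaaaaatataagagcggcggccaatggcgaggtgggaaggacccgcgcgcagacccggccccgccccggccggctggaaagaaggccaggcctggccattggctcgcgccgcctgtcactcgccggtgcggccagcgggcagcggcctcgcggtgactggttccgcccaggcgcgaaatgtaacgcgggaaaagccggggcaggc
ZNF117: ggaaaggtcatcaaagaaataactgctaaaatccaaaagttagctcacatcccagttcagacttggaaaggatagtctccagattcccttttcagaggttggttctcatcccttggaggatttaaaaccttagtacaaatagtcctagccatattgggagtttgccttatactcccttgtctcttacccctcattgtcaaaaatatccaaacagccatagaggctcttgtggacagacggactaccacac
ZNF783: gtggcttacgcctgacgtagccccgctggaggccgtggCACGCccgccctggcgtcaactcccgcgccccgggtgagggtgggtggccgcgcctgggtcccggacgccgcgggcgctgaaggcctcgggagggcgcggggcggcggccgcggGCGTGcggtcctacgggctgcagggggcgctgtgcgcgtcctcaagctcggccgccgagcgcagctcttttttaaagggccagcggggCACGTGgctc
ZNF581 and ZNF783 each held 4 cores, where the CACGTG of ZNF783 is counted on each strand, and ZNF367 and ZNF117 held 0. Among these windows, each direction had a promoter with the core and another without it. The windows of ZNF581 and ZNF117 lie inside the GENCODE v29 spans of these genes (55635459 to 55645622 and 64971776 to 65006684). Only a single window per gene was searched, so cores at other starts would be missed. RefSeq promoter windows of 300 bases, 250 before and 50 after the start, were found for 265 of the 309 genes. A core was present in 173 of the 265 (65.3%), close to the 64.9% among genes with the same floor and above the 48.4% of all 27305 windows. By outcome in hypoxia, 63 of 106 windows (59.4%) of genes that rose held a core, 18 of 28 (64.3%) of genes that fell and 92 of 131 (70.2%) of the rest. The E-box CACGTG contains the ACGTG core and is counted within these shares. A core in these windows is a description of letters, not a bound site.

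In the libraries, total counts ran from 6013980 in replicate 2 of vehicle at 20% O2 to 40549699, and levels are given as CPM, counts relative to the size of the library, scaled with TMM, an edgeR method that aligns libraries on the bulk of their genes. That smallest library set the lowest count for 306 of the 309 genes, where 50 counts are 8.31 CPM, against 1.23 CPM in the largest library. The summed counts per ZNF gene ran from 1394 to 48726, with a median of 5402. Just inside the floor lay ZNF75D with a lowest count of 50, ZNF112, ZNF324B and ZNF333 with 51 and ZNF10 with 52, and just outside it lay ZNF429, ZNF486, ZNF560, ZNF570 and ZNF585B with 49. Replicates of a group differed by more than counting error in all 9 pairs, most of all for replicate 3 of 32-134D against the other two. All 11 liver cell markers had counts in every library, endothelial markers summed to at most 1.28 CPM with 2 of 4 at 0, and leukocyte markers to at most 0.842 CPM with 1 of 4 at 0. Of 5 fibroblast markers, 3 had counts in every library, and their sum was 26.1 to 31.1 CPM in vehicle at 20% O2, 13.4 to 14.2 at 1% O2 and 26.4 to 36.3 with 32-134D. The part of these markers in the results was not tested. The hypoxia markers CA9, ANGPTL4, VEGFA, NDRG1 and EPO all rose in vehicle at 1% O2, and all fell with 32-134D.

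Summed over the 309 genes, ZNF transcripts were more abundant in hypoxia. The sums were 9331, 9611 and 9957 CPM in the replicates of vehicle at 20% O2, 13210, 12770 and 12590 CPM at 1% O2, and 10350, 10510 and 10790 CPM with 32-134D. The 3 groups did not overlap, and with this TMM scaling the 32-134D libraries lay between the vehicle groups, nearer to vehicle at 20% O2. On total library size in place of TMM the groups did not overlap either, at 9937 to 10440, 11370 to 12290 and 10690 to 11210 CPM. With that scaling the 32-134D libraries were not clearly nearer to either vehicle group. In bulk RNA, less RNA per cell and fewer cells carrying it cannot be told apart.

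**Figure D1:**
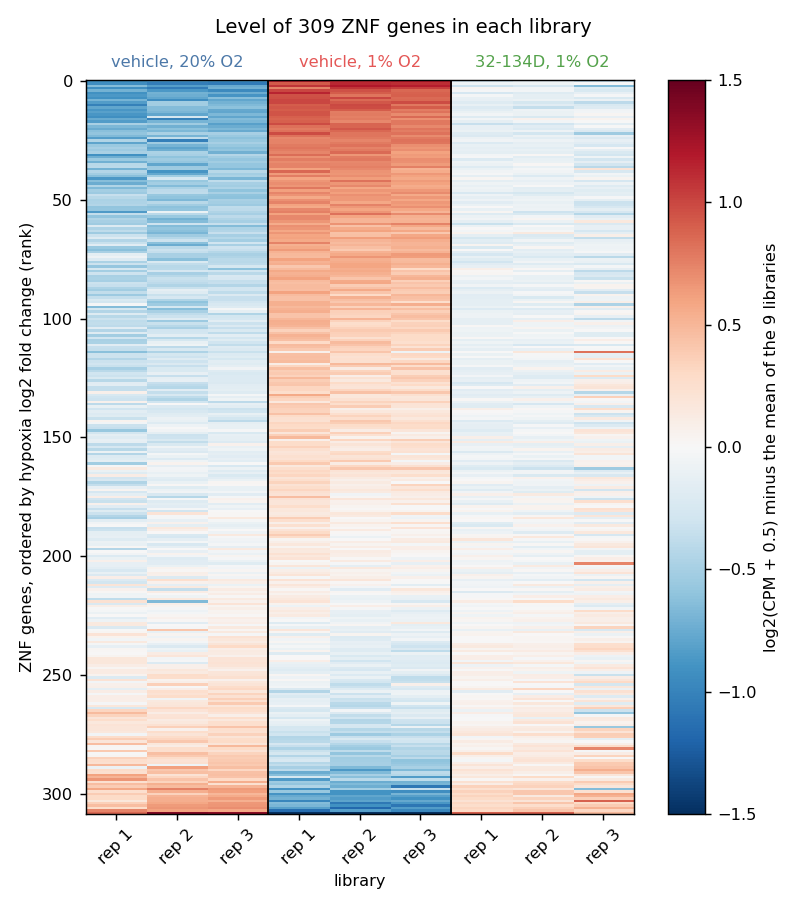
Heatmap of the 309 ZNF genes (rows, ordered by their log2 fold change in hypoxia) in the 9 libraries (columns, 3 per group), colored by log2(CPM + 0.5) minus the mean of the gene over the libraries. The vehicle libraries at 1% O2 stand out as red over most of the rows and blue among the last ones, and the 32-134D libraries are paler, with single dark cells in replicate 3.

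The first comparison asked which ZNF genes respond to hypoxia. Against vehicle at 20% O2, 126 of the 309 genes (40.8%) were higher in vehicle at 1% O2 and 34 (11%) were lower, at an edgeR FDR below 0.05 and a fold change above 1.5. Among all genes tested 19.5% were higher and 20.3% lower, and among genes with the same floor 26.9% were higher and 19.5% lower. The median log2 fold change of the ZNF genes was 0.404, with quartiles of -0.104 and 0.93, against 0.143 for genes with the same floor. The libraries of the groups did not overlap for 190 genes with a positive change (61.5%) and 63 with a negative one (20.4%), against 48.0% and 33.3% of genes with the same floor and 32.3% and 28.1% of all genes tested. The 174 ZNF symbols under the floor had 77 higher and 16 lower genes and a median of 0.559.

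The size of the median depended on the scaling. Its distance from other genes could hardly change, since a scaling moves all genes by nearly the same amount. With libraries scaled by their total, the median of all genes tested moved to -0.209. Then 92 ZNF genes (29.8%) were higher and 52 (16.8%) lower, against 17.4% and 26.3% of genes with the same floor. Of the ZNF calls 63.9% were higher, against 78.8% with TMM. With the upper quartile there were 93 (30.1%) and 49 (15.9%), against 18.2% and 25.7%, and 65.5% of the ZNF calls were higher. Under TMM, total library size, upper quartile, DESeq2 size factors in edgeR and DESeq2 itself, the ZNF median stayed 0.261 to 0.264 above that of genes with the same floor.

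**Figure D2:**
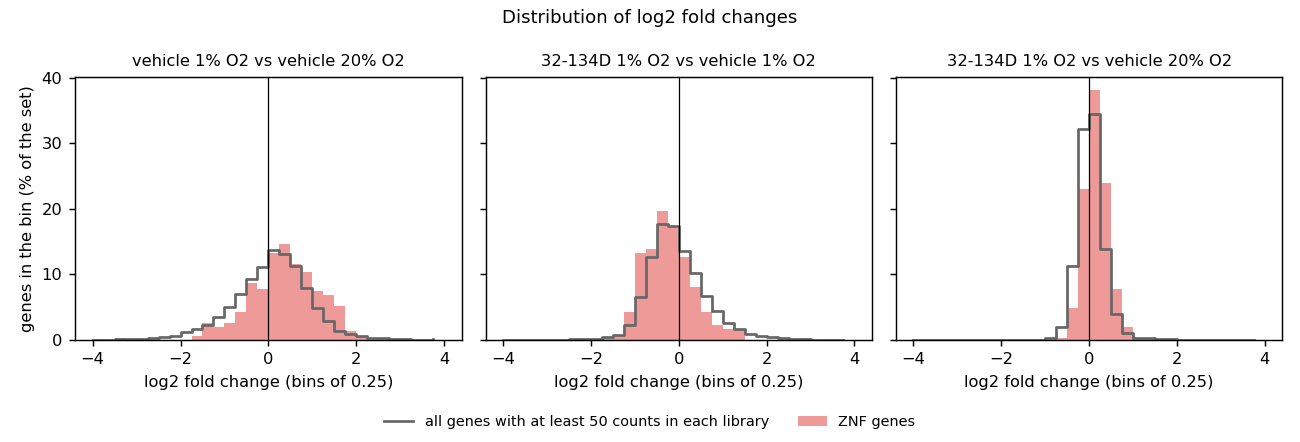
Histograms of log2 fold changes in the 3 comparisons, as a share of each set in bins of 0.25, for the 309 ZNF genes (filled) and the 10143 genes with at least 50 counts in each library (line). The ZNF genes are shifted to the right in hypoxia (median 0.404 against 0.143), to the left with 32-134D (-0.285 against -0.123) and slightly to the right for 32-134D against vehicle at 20% O2 (0.127 against 0.028).

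Among the genes that rose, ZNF654 had the largest change. Its level was 9.32, 9.58 and 9.28 CPM in the replicates of vehicle at 20% O2 and 40.6, 40.1 and 41.7 CPM at 1% O2, a log2 fold change of 2.12 (SE 0.10, edgeR FDR 2.8e-10). All 3 libraries at 1% O2 lay above all 3 at 20% O2. With 32-134D it was 14.8, 16.3 and 13.9 CPM, lower than in vehicle at 1% O2 by a log2 fold change of -1.44 (SE 0.09, edgeR FDR 1.41e-08) and still above each library of vehicle at 20% O2.

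ZNF581, a short protein with 4 fingers on chromosome 19 (55635459 to 55645622 in GRCh38), showed the same order. Its level was 19.7, 18.4 and 18 CPM in vehicle at 20% O2, 72.5, 83.7 and 82.9 CPM at 1% O2 and 36.5, 36.5 and 38 CPM with 32-134D. The log2 fold change was 2.09 in hypoxia (SE 0.09, edgeR FDR 1.11e-10) and -1.11 with 32-134D (SE 0.08, edgeR FDR 6.42e-08). No library of one group reached those of another. Of its exonic bases, 23.4% lie under exons of ZNF580 or CCDC106, so reads there could belong to either gene.

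ZNF395, a DNA-binding factor first described at papillomavirus and Huntington disease gene promoters, had 21.1, 18.7 and 19.6 CPM in vehicle at 20% O2 and 70.6, 77.5 and 76.1 CPM at 1% O2. It rose by a log2 fold change of 1.91 (SE 0.11, edgeR FDR 1.69e-09). With 32-134D it was 26.5, 28 and 21.1 CPM, the largest fall of the 309 genes in that comparison (-1.56, SE 0.10, edgeR FDR 2.07e-08), and replicate 3 lay beside the highest library of vehicle at 20% O2. FBXO16 covers 34.9% of its exonic bases. Its relative ZNF704, which shares the DNA-binding region of the same small family, went the other way, from 9.9, 13 and 13 CPM in vehicle at 20% O2 to 4.21, 4.86 and 4.94 CPM at 1% O2 (log2 fold change -1.36, SE 0.20, edgeR FDR 3.05e-05). With 32-134D, ZNF704 had 10.2, 10.1 and 16.6 CPM, all above vehicle at 1% O2.

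ZNF367, first described as a regulator of erythroid genes, had 18.3, 16.8 and 21.1 CPM in vehicle at 20% O2, 58.8, 74.2 and 71.9 CPM at 1% O2, and 35.9, 34 and 30.9 CPM with 32-134D. The log2 fold changes were 1.84 in hypoxia (SE 0.11) and -1.02 with 32-134D (SE 0.10), and the 3 groups did not overlap. The next genes by size of rise were ZNF823 (1.84), ZNF615 (1.83), ZNF184 (1.75) and ZNF343 (1.74), of which ZNF823, ZNF615 and ZNF343 hold KRAB letters and all have 12 or more fingers. Their groups did not overlap in hypoxia, and all 4 fell with 32-134D, by log2 fold changes between -0.96 and -1.20.

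The largest fall was that of ZNF618, a partner of the chromatin reader UHRF2, on chromosome 9 (113876282 to 114056591). It had 30.4, 44.1 and 43.2 CPM in vehicle at 20% O2 and 3.52, 4.43 and 3.70 CPM at 1% O2, a log2 fold change of -3.35 (SE 0.17, edgeR FDR 7.62e-10). With 32-134D its level was 31.4, 31.6 and 23.5 CPM, a log2 fold change of 2.91 compared with vehicle at 1% O2 (SE 0.17, edgeR FDR 7.77e-09). The 32-134D libraries overlapped those of vehicle at 20% O2, from which the gene did not differ past the thresholds (-0.44, edgeR FDR 0.0755).

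ZNF117 on chromosome 7, whose transcripts overlap the endogenous retroviral gene ERV3-1, had 23.7, 21.5 and 21.1 CPM in vehicle at 20% O2 and 5.99, 7.64 and 6.84 CPM at 1% O2 (log2 fold change -1.70, SE 0.12, edgeR FDR 1.25e-08). With 32-134D it was 17.3, 18.9 and 17.5 CPM, between the vehicle groups and apart from both. ZNF783, also on chromosome 7, fell from 9.11, 12.1 and 12.3 CPM to 4.0, 3.02 and 3.94 CPM (-1.60, SE 0.16, edgeR FDR 7.3e-07), and AC004890.2 overlaps 29.5% of its exonic bases. ZNF512B, known to bind the NuRD corepressor, fell from 106, 119 and 121 CPM to 47.3, 40.6 and 35.9 CPM (-1.48, SE 0.10, edgeR FDR 9.55e-09).

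With 32-134D these genes were at 92.2, 92.3 and 99.7 CPM for ZNF512B and 9.39, 9.63 and 10.9 CPM for ZNF783, in both cases above every library of vehicle at 1% O2. ZNF69, ZNF445 and ZNF676 fell by log2 fold changes between -1.47 and -1.33 in hypoxia and rose by 1.16 to 1.26 with 32-134D. ZNF33B, a KRAB protein with 16 fingers, had 16.4, 15.9 and 17.8 CPM in vehicle at 20% O2, 6.49, 6.46 and 7.47 CPM at 1% O2 and 15.1, 16.7 and 18.8 CPM with 32-134D. For ZNF33B the 32-134D and 20% O2 libraries overlapped, with a log2 fold change of 0.00 between them (SE 0.12).

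**Figure D3:**
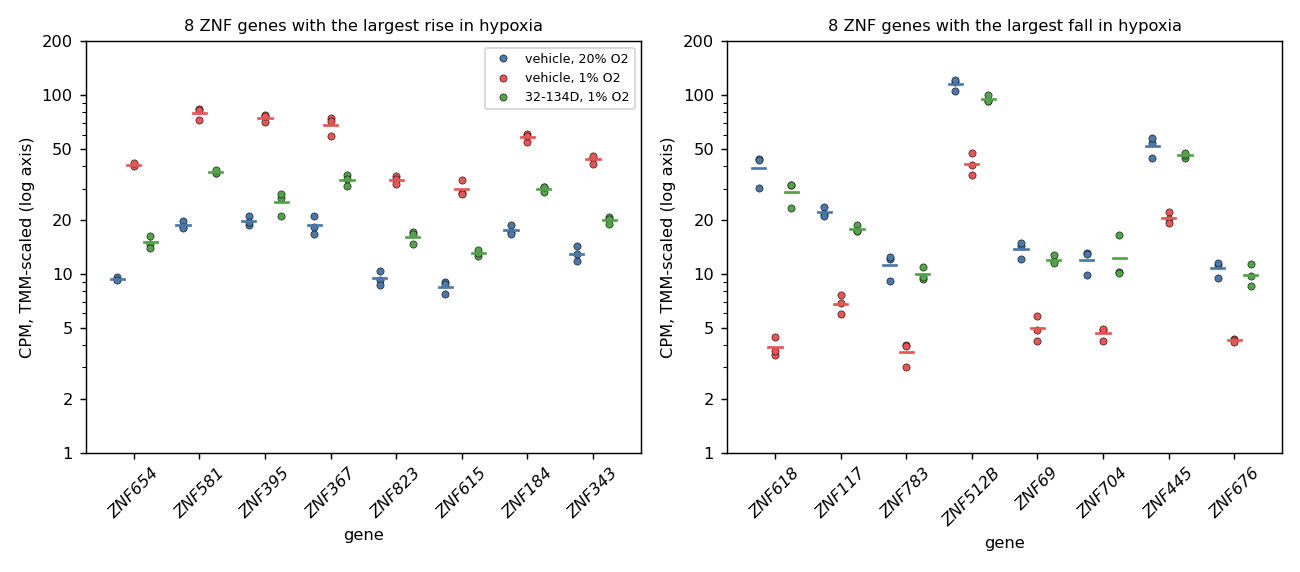
Level in each library (points, CPM with TMM scaling, log axis) and group mean (bars) of the 8 ZNF genes with the largest rise (left) and the 8 with the largest fall (right) in hypoxia. On the left the red points of vehicle at 1% O2 lie above the other groups and among the falling genes on the right beneath them, with the green points of 32-134D in between or at the level of vehicle at 20% O2.

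The second comparison asked what 32-134D did to ZNF genes at 1% O2. Against vehicle at 1% O2, 27 of the 309 genes (8.74%) were higher and 89 (28.8%) were lower with 32-134D. Among all genes tested 16.2% were higher and 13.7% lower, and among genes with the same floor 15.6% and 17.7%. The median log2 fold change was -0.285, with quartiles of -0.637 and 0.118, against -0.123 for genes with the same floor. The groups did not overlap for 63 genes with a positive change (20.4%) and 170 with a negative one (55.0%), against 29.6% and 46.5% of genes with the same floor and 25.4% and 30.8% of all genes tested. The ZNF symbols under the floor had 16 higher and 66 lower genes and a median of -0.424.

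The vehicle libraries at 1% O2 also enter the first comparison, so the opposite signs of the 2 comparisons are not independent of each other. Scaled by total counts, 38 genes (12.3%) were higher and 52 (16.8%) lower, against 21.6% and 9.55% of genes with the same floor. Of the ZNF calls 42.2% were higher, against 23.3% with TMM. With the upper quartile there were 35 (11.3%) and 64 (20.7%), against 19.2% and 11.8%, and 35.4% of the ZNF calls were higher. The ZNF median lay 0.16 to 0.163 below that of genes with the same floor under all 5 scalings. That distance is nearly fixed by construction, as in the first comparison. Without replicate 3 of 32-134D, which stood apart, 25 genes were higher and 90 lower.

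After ZNF395 and ZNF654, the largest falls with 32-134D were in ZNF160 (-1.26), ZNF586 (-1.22), ZNF862 (-1.22), ZNF615 (-1.20), ZNF112 (-1.19) and ZNF343 (-1.12). ZNF160, a KRAB protein in the array at the end of chromosome 19, had 74, 70.6 and 72.6 CPM in vehicle at 1% O2 and 32, 30.6 and 27.9 CPM with 32-134D (SE 0.09, edgeR FDR 4.42e-08), and 20.2, 25.4 and 22.3 CPM in vehicle at 20% O2. ZNF586, farther along the same arm, had 29.2, 30.2 and 28.8 CPM in vehicle at 1% O2 and 13.1, 11.7 and 13.2 CPM with 32-134D (SE 0.09, edgeR FDR 1.32e-07). In both genes the 32-134D libraries lay below all vehicle libraries at 1% O2 and above all at 20% O2. ZNF862 has 26.3% of its exonic bases under a gene on the other strand, and the strand setting of the counting is not given in the sources used here.

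The last comparison set 32-134D at 1% O2 against vehicle at 20% O2, to show which ZNF genes still differed from the normoxic level. Here 18 of the 309 genes (5.83%) were higher and 1 (0.324%) was lower, against 3.0% and 0.516% of all genes tested and 3.71% and 0.572% of genes with the same floor. The median log2 fold change was 0.127, against 0.028. The named genes with the largest differences were ZNF581 (0.98), ZNF703 (0.84), ZNF367 (0.82) and ZNF800 (0.82), and ZNF654, ZNF823, ZNF184, ZNF615 and ZNF343 were also among the 18.

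ZNF800 had 12.3, 10.2 and 13.3 CPM in vehicle at 20% O2, 39.4, 36.9 and 34.5 CPM at 1% O2 and 20.6, 22.2 and 22 CPM with 32-134D, without overlap between the groups. ZNF703, a corepressor of the NET family that is amplified in breast cancer and holds no finger by the pattern used, had 16.9, 19 and 20.8 CPM in vehicle at 20% O2, 27.8, 35.4 and 25.1 CPM at 1% O2 and 26.4, 29.6 and 46.6 CPM with 32-134D. Replicate 3 of 32-134D stood above the other two, and without it the log2 fold change against vehicle at 20% O2 was 0.54 in place of 0.84 and no longer passed the thresholds. The one gene that was lower, ZNF467, had 21.1, 24 and 22 CPM in vehicle at 20% O2 and 16.6, 15.9 and 8.73 CPM with 32-134D (-0.68, edgeR FDR 0.0424). That call also rested on replicate 3, without which the log2 fold change was -0.45, and it was lost when any of the vehicle libraries at 20% O2 was left out.

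By place and domain, the ZNF genes were described without a test, since the groups were formed among genes followed with results known. On chromosome 19, 62 of 136 genes (45.6%) were higher and 9 lower in hypoxia, with a median log2 fold change of 0.48, and on other chromosomes 64 of 173 (37.0%) and 25, with a median of 0.327. The 597 other genes of chromosome 19 with the same floor had 143 higher (24.0%) and 119 lower (19.9%) and a median of 0.102. With 32-134D, 7 ZNF genes of chromosome 19 (5.15%) were higher and 45 (33.1%) lower (median -0.38). On other chromosomes 20 (11.6%) were higher and 44 (25.4%) lower (median -0.181). The 597 other genes of chromosome 19 had 72 higher (12.1%) and 100 lower (16.8%) and a median of -0.164. With total library size the median on other chromosomes was 0.00588 with 32-134D, with 27 higher and 25 lower, and on chromosome 19 it was -0.194, with 11 and 27.

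The KRAB genes were split by place. Of the 71 with KRAB letters on chromosome 19, 37 (52.1%) were higher and 4 lower in hypoxia, with a median of 0.594, and 25 were lower and 4 higher with 32-134D. Of the 40 KRAB genes elsewhere, 13 were higher and 7 lower in hypoxia, with a median of 0.112, and 10 were lower and 7 higher with 32-134D. The direction of these 40 depended on the scaling, since with total library size 10 were higher and 11 lower in hypoxia (median -0.101) and 7 were higher and 4 lower with 32-134D (0.125). With that scaling the 71 on chromosome 19 had 29 higher and 9 lower in hypoxia (0.384) and 6 higher and 15 lower with 32-134D (-0.212). Without KRAB letters, chromosome 19 gave 25 higher and 5 lower of 64 genes in hypoxia, and other chromosomes 50 and 18 of 130. The 17 SCAN genes had 8 higher (47.1%) and 2 lower (11.8%) in hypoxia, and 1 higher (5.88%) and 7 lower (41.2%) with 32-134D. Genes with the same floor had 26.9% and 19.5% in hypoxia, and 15.6% and 17.7% with 32-134D.

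Along chromosome 19 the genes fall into arrays. Between 52 and 54 Mb lay 23 ZNF genes, of which 13 passed the test in hypoxia, each higher (median of the 23 genes 0.612), and 10 passed with 32-134D, each lower (median -0.429). Those were 56.5% and 43.5% of the array, against 26.9% higher in hypoxia and 17.7% lower with 32-134D among genes with the same floor. Neighbors moved separately, since ZNF160 in this array rose by a log2 fold change of 1.69 while ZNF83 had 19.7, 19.5 and 21 CPM in vehicle at 20% O2, 21.2, 19.5 and 18.6 CPM at 1% O2 and 19.7, 19.7 and 19.2 CPM with 32-134D. Between 56 and 58 Mb, 11 of 27 genes (40.7%) were higher and 2 (7.41%) lower in hypoxia (median 0.472), and 10 (37.0%) were lower and 2 (7.41%) higher with 32-134D. Between these arrays, from 54 to 56 Mb, 2 of 7 were higher and 3 lower in hypoxia, and ZNF581 is 1 of those 7.

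The change was also set beside the number of fingers, the length and the abundance of each gene. Across the ZNF genes with a protein, Spearman's rho between the number of fingers and the log2 fold change was 0.0458 in hypoxia and -0.0432 with 32-134D. With the mean level per kilobase of exons it was 0.277 and -0.292, and with the number of exonic bases -0.228 and 0.288, all over genes, which share libraries and are not replicates. Split into 3 equal parts by level per kilobase, the genes gave 27 higher and 19 lower of 103 in hypoxia in the lowest part, 49 and 8 in the middle part and 50 and 7 in the highest. The shares were 26.2%, 47.6% and 48.5% higher and 18.4%, 7.77% and 6.8% lower, against 26.9% and 19.5% of genes with the same floor. With 32-134D, 17 were higher and 18 lower in the lowest part, 6 and 30 in the middle part and 4 and 41 in the highest. Here the shares were 16.5%, 5.83% and 3.88% higher and 17.5%, 29.1% and 39.8% lower, against 15.6% and 17.7%. In both comparisons the lowest part lay close to the genes with the same floor. The level is a mean over the 9 libraries, which include those of each fold change. The rho with level and the 3 parts are therefore not independent of the change. Length and abundance also limit the precision of a gene, and their part in the differences between these groups was not tested.

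**Figure D4:**
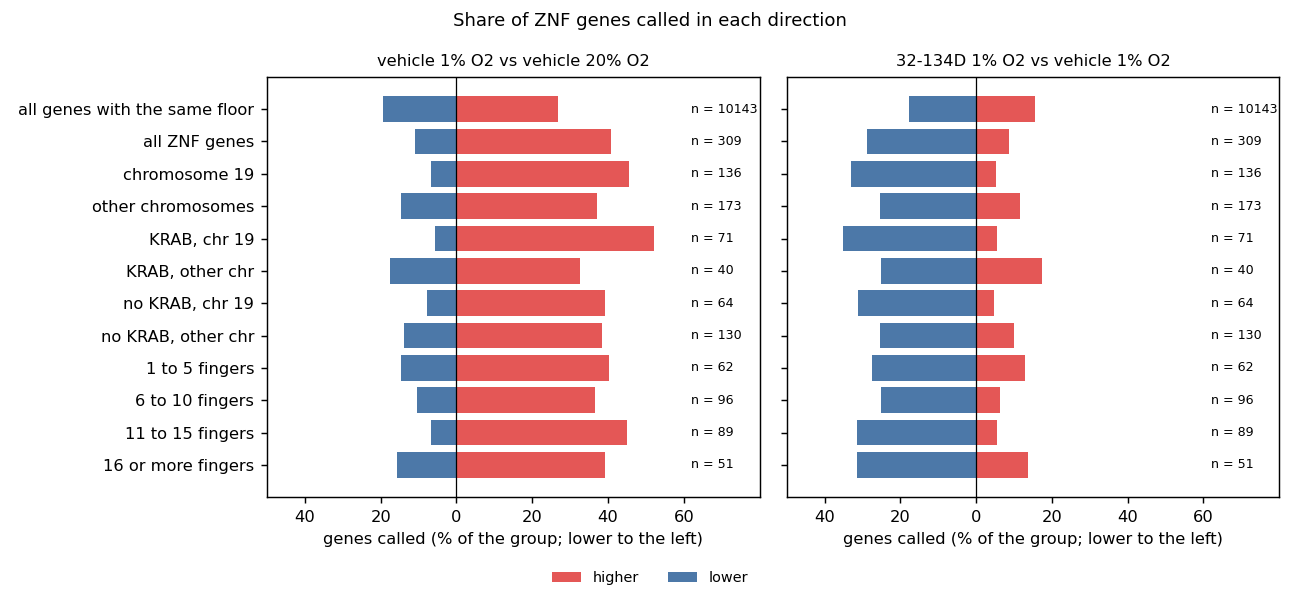
Share of genes called higher (red, to the right) and lower (blue, to the left) in hypoxia (left panel) and with 32-134D at 1% O2 (right panel), in percent of each group, with n at the right. In hypoxia the KRAB genes of chromosome 19 have 52.1% higher and 5.63% lower, the KRAB genes elsewhere 32.5% and 17.5%, and all genes with the same floor 26.9% and 19.5%.

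ZNF genes with a described function were listed separately, 36 of them among the 309. In hypoxia 15 (41.7%) were higher and 3 (8.33%) lower, with a median log2 fold change of 0.447, close to the shares of 40.8% and 11% among all 309. With 32-134D 2 were higher (5.56%) and 9 lower (25%), with a median of -0.225, beside 8.74% and 28.8% of the 309. Scaled by total library size, 9 were higher and 4 lower in hypoxia and 4 higher and 6 lower with 32-134D. Against vehicle at 20% O2, 3 were higher with 32-134D (ZNF330, ZNF367 and ZNF703). Of the 3 others on the list, ZNF350 and ZNF410 lay under the floor with lowest counts of 46 and 13, and ZNF423 had 4 counts in all.

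ZNF622, a factor in the maturation of the large ribosomal subunit and the ZNF gene with the highest level per kilobase (52.3 CPM per kilobase), had 52.2, 50.6 and 47.6 CPM in vehicle at 20% O2 and 143, 147 and 138 CPM at 1% O2 (log2 fold change 1.51, SE 0.07, edgeR FDR 5.35e-10). With 32-134D it was 75.5, 77 and 69.5 CPM, between the vehicle groups and apart from both. ZNF330, a nucleolar protein, rose by 1.55 and fell by 0.92 with 32-134D on the log2 scale. ZNF593, another ribosome maturation factor, changed by 0.49 (edgeR FDR 0.00193), under the fold threshold, and its exons lie wholly under a gene on the other strand. ZNF598, the ligase that marks collided ribosomes, changed by 0.46 (edgeR FDR 0.00026), also under it.

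ZNF143, which binds many promoters, had 25.5, 24 and 23.7 CPM in vehicle at 20% O2, 53, 58.4 and 54.1 CPM at 1% O2 and 32.4, 33 and 27.9 CPM with 32-134D, a log2 fold change of 1.18 in hypoxia (SE 0.09, edgeR FDR 4.15e-08). Its close relative ZNF76 went the other way, with 49.8, 58.3 and 53.4 CPM in vehicle at 20% O2 and 33.1, 34.5 and 35.5 CPM at 1% O2, a fall of 0.64 on the log2 scale (SE 0.08, edgeR FDR 8.1e-06). Neither pair of groups overlapped. Of the 3 proteins that form the Z3 complex with ZMYND8, ZNF592 rose by 1.39 (SE 0.08, edgeR FDR 3.15e-09), ZNF687 changed by 0.46 (edgeR FDR 0.000179), under the fold threshold, and ZNF532 changed by -0.10 (edgeR FDR 0.425).

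The repressor ZNF746 (PARIS) rose by 1.25 and ZNF263, a SCAN protein, by 1.18, although 33.1% of the exonic bases of ZNF263 lie under TIGD7 or LINC00921 on the other strand. ZNF148 and ZNF281 bind the same GC-rich elements. ZNF148 had 46.6, 48.7 and 50.8 CPM in vehicle at 20% O2 and 80.5, 70.4 and 73 CPM at 1% O2, a log2 fold change of 0.62 (SE 0.08, edgeR FDR 8.14e-06) that fell below the fold threshold under each of the other scalings. ZNF281 changed by -0.30 (edgeR FDR 0.0354), under the fold threshold. ZNF217, amplified in several cancers and a partner of LSD1, changed by 0.27, and ZNF24, a repressor of VEGFA, by 0.33.

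ZNF93, a repressor of LINE-1 elements, had 12.3, 12.6 and 14.2 CPM in vehicle at 20% O2, 31.2, 28.5 and 27.3 CPM at 1% O2 and 17.6, 18.2 and 16.6 CPM with 32-134D (log2 fold changes 1.15 and -0.73). ZNF91, a repressor of SVA elements on the same chromosome, had 19.9, 21.5 and 20.9 CPM in vehicle at 20% O2, 14, 13.8 and 13.8 CPM at 1% O2 and 19.9, 18.4 and 20.6 CPM with 32-134D, a log2 fold change of -0.58 in hypoxia that ended just under the fold threshold (edgeR FDR 8.69e-05). ZNF445, which protects genomic imprints, had 44.7, 53.7 and 57.4 CPM in vehicle at 20% O2, 22.2, 20.2 and 19.2 CPM at 1% O2 and 44.8, 46.4 and 47.2 CPM with 32-134D (log2 fold changes -1.34 and 1.16). In ZNF91 and ZNF445 the 32-134D libraries overlapped vehicle at 20% O2, and in ZNF93 they lay above it.

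**Figure D5:**
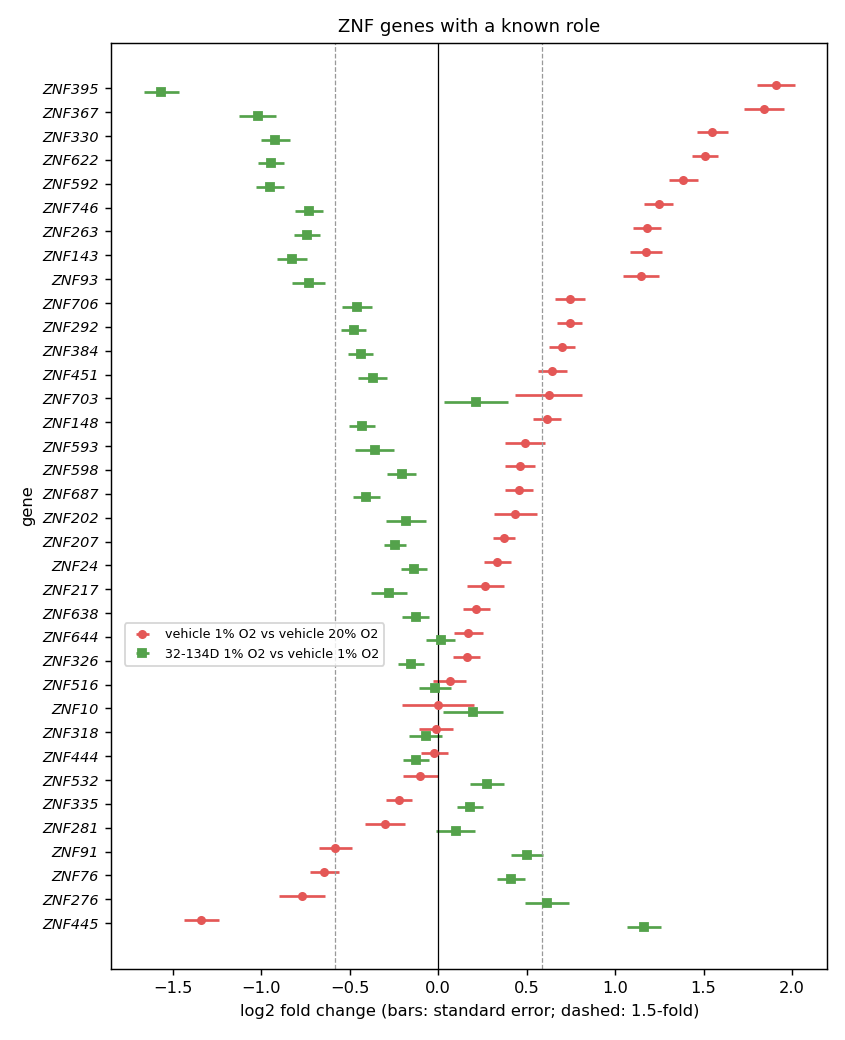
Log2 fold change (symbols) and standard error (bars) of the 36 ZNF genes with a described function, in hypoxia (red circles) and with 32-134D at 1% O2 (green squares), ordered by the value in hypoxia, with dashed lines at a 1.5-fold change. The values run from 1.91 and -1.56 for ZNF395 at the top to -1.34 and 1.16 for ZNF445 at the bottom, and the 2 comparisons share their vehicle libraries at 1% O2.

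The partners through which KRAB proteins silence chromatin were read from the same fit. TRIM28 and SETDB1, the corepressor and its histone methyltransferase, changed by log2 fold changes of 0.43 and 0.54 in hypoxia, both under the fold threshold. Of the 16 genes of the corepressor complex, 2 rose in hypoxia, CBX1 (0.82) and HDAC2 (0.74). In the same list 4 fell, ATF7IP (-1.0), CBX5 (-1.29), CHD3 (-1.04) and CHD4 (-1.11). The shares of all genes tested were 19.5% higher and 20.3% lower. With 32-134D, 4 of the 16 (ATF7IP, CBX5, CHD3 and CHD4) rose by 0.69 to 1.17 and 1 (CBX1) fell by 0.65. Here 16.2% of all genes tested were higher and 13.7% lower. Whether the list of 16 differs from these shares was not tested. The HP1 proteins CBX1 and CBX5 changed in opposite directions. Of the 15 HUSH and heterochromatin partners, 3 passed the test in hypoxia, each lower (20.0%, close to the 20.3% of all genes tested). They were EHMT1, ATRX and TRIM24, with log2 fold changes of -0.73, -1.25 and -1.05. With 32-134D, ATRX and TRIM24 were higher (13.3%, against 16.2% of all genes tested). These counts moved with the scaling: with total library size 6 of the 15 were lower in hypoxia and 6 higher with 32-134D, and in the corepressor complex 1 was higher and 5 lower in hypoxia.

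ZNF genes that stayed level in all 3 comparisons were led by ZNF83, ZNF124 and ZNF26. ZNF124 had 18.4, 14.6 and 15 CPM in vehicle at 20% O2, 18.2, 16.8 and 14.3 CPM at 1% O2 and 15.4, 17.8 and 14.6 CPM with 32-134D. ZNF26 had 23.2, 23.6 and 23.2 CPM, 25.2, 20.6 and 21.5 CPM, and 22, 22.5 and 25.4 CPM in the same order. Their groups overlapped, and the largest log2 fold change of either gene was 0.05 in size with standard errors of 0.10 to 0.13, so changes of that order are within the replicate error. Among the most abundant ZNF genes per kilobase, ZNF282 rose by 1.37 in hypoxia, from a mean of 77.6 ± 5.22 to 201 ± 6.27 CPM (SD, n = 3), while ZNF358 (0.37), ZNF768 (0.46) and ZNF787 (0.43) changed by less than the fold threshold.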

How the data were processed

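RNA was sequenced from 9 Hep3B cultures, 3 in each of 3 groups. The authors trimmed reads with Bbduk, mapped them with STAR to Ensembl release 100 (GRCh38), counted them with featureCounts and deposited raw counts per gene without normalization; tool versions and the strand setting are not given in the sources used here. The 9 columns were matched to samples by the names in the labels, 0 columns were left unmapped, and every listed gene had an identifier. The labels call the replicates biological.

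Counts were compared with edgeR 4.0.16 (limma 3.58.1, R 4.3.3) using TMM and the quasi-likelihood test with Benjamini-Hochberg adjustment, in 1 fit of the 9 libraries over the 22672 genes with a summed count of at least 10. Calls needed an FDR below 0.05 and a fold change above 1.5. P-values were adjusted over the whole table and only the rows of ZNF genes were read. The members, lists and groups were chosen with earlier results of these data known, so they are described by counts and medians beside those of all genes. Named genes were the 8 with the largest change in each direction in the first 2 comparisons and the 4 in the last among calls without overlap between libraries, genes with a listed function, the 6 with the highest level per kilobase, those beside the floor of 50 counts and the 3 closest to no change.

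Positions, exons and translated proteins came from GENCODE v29, in which 309 of 309 genes were found, and promoters from RefSeq on GRCh38.p14. Proteins were searched for a C2H2 finger (2 to 4 residues between cysteines, 12 to the first histidine, 3 to 5 between histidines) and for fixed letters of the KRAB and SCAN domains. Shared sequence was counted in 64-base words of the transcripts.

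The procedure was tested on simulated data. The replicate numbers did not pair the samples. Precision is limited by 3 replicates per group and by the smallest library, with 6013980 counts. DESeq2 1.42.0, other scalings, filters, thresholds, floors and leaving out each library were tried as alternatives.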

Additional observations from a re-analysis of the deposited data

How the results depend on the processing

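The counts of ZNF genes were recomputed under each alternative, 2 of which were chosen after seeing the data (genes with at least 1 finger in the GENCODE v29 protein, and genes with at most 10% shared words and exon overlap). The same selection by RefSeq protein was not run. A threshold of a 2-fold change gave 66 higher and 17 lower in hypoxia, 11 and 16 with 32-134D and 0 and 0 for 32-134D against vehicle at 20% O2, the last from edgeR, which without a fold threshold called 73 and 2. Without a fold threshold, 59 were lower in hypoxia and 52 higher and 159 lower with 32-134D. With total library size, 52 were lower in hypoxia and 52 with 32-134D. With no floor, which adds the 174 symbols below it, 203 were higher in hypoxia, 43 higher and 155 lower with 32-134D, and 32 and 2 against vehicle at 20% O2. With at least 100 counts in each library, which keeps fewer genes, the counts were 67 higher in hypoxia, 17 and 47 with 32-134D and 9 higher against vehicle at 20% O2. A mean of at least 5 CPM gave 29 higher there, and a fit of only those groups gave 0 lower. Shares of other genes at the 2-fold threshold, without a threshold and at 100 counts are not given here. Those counts therefore describe the ZNF genes alone. The cause of the differences between alternatives was not tested beyond the construction of each alternative. With each library left out in turn, 109 to 126 genes were higher and 32 to 39 lower in hypoxia, 25 to 30 higher and 76 to 90 lower with 32-134D, and 18 to 22 higher and 0 to 1 lower against vehicle at 20% O2. With a replicate block the counts were 125 and 34, 27 and 90, and 17 and 1. The replicate numbers do not pair the samples, since deviations of same-numbered samples correlated between -0.144 and 0.062. The block changed no count by more than 1.5 times. Among single named genes, no call reversed under any alternative, 1305 values kept their call and 89 lost it, most often for ZNF333, ZNF148 and ZNF703 in hypoxia. Values without a call could also gain it, 43 of them without a fold threshold and at most 4 under any other alternative. Depth limits genes near the floor in replicate 2 of vehicle at 20% O2, the library with the fewest reads.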

Other observations

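Other families of zinc finger genes, taken by symbol and without a floor, were read from the same fit, in which 19.5% of all genes tested were higher and 20.3% lower in hypoxia and 16.2% and 13.7% with 32-134D. Of 39 ZBTB genes, which join a BTB domain to C2H2 fingers, 17 were higher and 5 lower in hypoxia, with a median log2 fold change of 0.449, and 7 were higher and 11 lower with 32-134D. ZBTB10 rose from a mean of 29.8 to 193 CPM in hypoxia (log2 fold change 2.69, edgeR FDR 1.2e-11) and was 63.7 CPM with 32-134D, while ZBTB7A, a repressor known from fetal globin control, fell from 99.9 to 53.4 CPM (-0.90) and was 92.1 CPM with 32-134D. With total library size, 9 ZBTB genes were higher and 6 lower with 32-134D, so the balance of that count turned with the scaling. Of 15 ZFP genes, 11 were higher and 1 lower in hypoxia and 1 higher and 8 lower with 32-134D, and with total library size 8 and 2 in hypoxia and 2 and 5 with 32-134D. ZFP36, which binds and destabilizes AU-rich mRNA through fingers of another type, is among them by its symbol and rose from 20.1 to 87.9 CPM.

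Of 15 Krüppel-like factor (KLF) genes tested, 6 were higher and 2 lower in hypoxia and 7 were not called, and with 32-134D 2 were higher, 5 lower and 8 not called. The counts in hypoxia were the same with total library size, upper quartile and DESeq2 size factors. KLF4 rose from a mean of 1.12 to 18.6 CPM (log2 fold change 4.13, edgeR FDR 7.26e-11) and was 5.10 CPM with 32-134D. KLF10, a TGF-beta response gene, rose from 27.1 to 179.9 CPM and was 64.8 CPM with 32-134D. KLF15, a regulator of gluconeogenic genes in liver, fell from 17.3 to 3.21 CPM (-2.45, edgeR FDR 1.32e-09) and was 12.9 CPM with 32-134D. Of 17 ZSCAN genes 7 were higher and 3 lower in hypoxia, and of 7 ZKSCAN genes 2 and 2, where ZKSCAN1 fell from 230.1 to 60.8 CPM (-1.92) and was 195 CPM with 32-134D. These genes were named after their values were seen.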
